A study of Mus musculus with 24 samples.

Results

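The genes described here encode the protein components of the cytoplasmic ribosome. They were chosen by symbol alone: every entry named Rpl or Rps with a number, optionally followed by a, x or l, together with Rpsa, Rplp0, Rplp1 and Rplp2. The rule found 80 genes among the 38920 used from the deposited tables, of which 31 encode proteins of the small subunit and 49 proteins of the large subunit. Ribosomal proteins whose symbols fall outside this pattern (such as Fau and Rps3a1) were kept as a separate list. In each comparison 77 of the 80 passed the filter on low values, and the other 3 are accounted for at the end.

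A ribosome is assembled from one copy of nearly every ribosomal protein and the ribosomal RNAs, so the genes of both subunits are usually transcribed together and at high levels in growing cells. Many of their mRNAs begin with a C and a run of pyrimidines, the 5′ terminal oligopyrimidine tract, through which the mTOR pathway controls their translation. In neural stem cells, as in other dividing cells, the demand for ribosomes is tied to growth.

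The cells were neural stem and progenitor cells of mouse fetuses at embryonic day 14.5, dissected from the cerebral cortex or the hypothalamus of females or males and grown as neurospheres, which are floating clusters of dividing cells. At passage 3 the cultures received 100 nM dexamethasone, a synthetic agonist of the glucocorticoid receptor, or an equal volume of ethanol as vehicle, for 4 h. Sex, region and treatment give 8 groups of 3 libraries, 24 in all, made from total RNA with a stranded kit. The labels call the 3 biological replicates without saying whether they came from separate fetuses, litters or cultures, so the p-values measure only the spread between these libraries. No strain or allele is named.

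Each library held 16.0 to 25.5 M reads in genes, and the 80 genes received 0.306 to 0.573 M of them. Reads of mt-Rnr2, the large mitochondrial ribosomal RNA, made up between 1.09 and 2.67% of a cortex library and between 21.3 and 39.96% of a hypothalamus library. Region therefore cannot be told apart from a difference in library preparation or processing between the 2 sets. The 8 neural stem and progenitor markers were all present, with a summed level of 4825 to 7053 RPM (reads scaled to a common library size) on a scale common to the 24 libraries. The defining microglial markers Aif1, Csf1r, Tmem119 and P2ry12 and the globin genes stayed under 0.5 RPM in every library. Male hypothalamus replicate 2 carried the female-specific RNA Xist at 26.4 RPM with vehicle and 30.1 RPM with dexamethasone, against at most 0.506 RPM in the other male hypothalamus libraries, so the male hypothalamus medians and the comparisons between sexes and between regions in hypothalamus are also summarised without it. Fkbp5, a direct target of the glucocorticoid receptor, rose in each of the 4 tables, by 3.403 ± 0.176 (log2, SE) in female cortex, 2.94 ± 0.0556 in male cortex, 2.71 ± 0.138 in female hypothalamus and 2.36 ± 0.175 in male hypothalamus.

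The summed share of ribosomal protein reads was lower with dexamethasone in cortex and higher in hypothalamus. Shares were taken of the reads outside 4 rRNA-like entries, and libraries are set side by side by their replicate number. In female cortex the 80 genes held 3.00, 2.74 and 3.10% of these reads with vehicle and 2.78, 2.57 and 2.75% with dexamethasone. In male cortex the shares were 3.13, 3.11 and 2.94% with vehicle and 2.71, 2.97 and 2.67% with dexamethasone. In all 6 cortical comparisons by number the dexamethasone library had the lower share, by 4.70 to 13.4%, and in each table the highest dexamethasone library lay just above the lowest vehicle library.

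In female hypothalamus the shares were 3.03, 2.62 and 2.40% with vehicle and 3.25, 3.32 and 2.58% with dexamethasone. In male hypothalamus they were 3.01, 2.65 and 2.85% with vehicle and 3.02, 2.97 and 3.21% with dexamethasone. All 6 dexamethasone libraries had the higher share, by 0.323 to 27.0%, while the groups themselves overlapped in both tables. Both subunits moved alike: the mean change over the 3 numbers was -8.78% for small-subunit and -7.96% for large-subunit genes in female cortex, -9.08 and -9.02% in male cortex, 15.1 and 13.2% in female hypothalamus, and 9.26 and 7.78% in male hypothalamus.

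**Figure D1:**
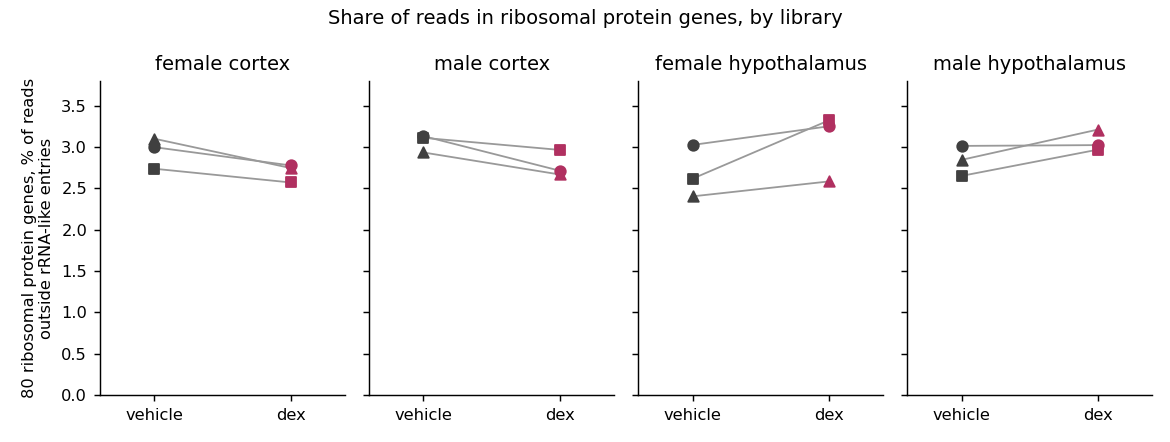
Share of reads in the 80 ribosomal protein genes, in percent of the reads outside rRNA-like entries, for each of the 24 libraries. Lines join the vehicle and dexamethasone libraries of the same replicate number (circle 1, square 2, triangle 3); the 6 cortical lines fall, from 2.74 to 3.13% down to 2.57 to 2.97%, and the 6 hypothalamic lines rise or, for male replicate 1, stay level at 3.01 and 3.02%.

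Gene by gene, nearly every ribosomal protein gene had a lower fitted level with dexamethasone in cortex, but the shifts were small and few passed the test. In female cortex 73 of 77 log2 differences were negative, with medians of -0.09 for the small subunit and -0.08 for the large. In male cortex 72 of 77 were negative, with medians of -0.09 and -0.10. The median over all genes tested was 0.02 in female and 0.04 in male cortex.

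In female cortex 1 of the 77, Rpl24, was called lower (limma on log2 of RPM + 1, Benjamini-Hochberg adjusted p under 0.05), against a background of 3.02% of 13314 genes called lower. Equal replicate numbers were taken as pairs in this table, but replicate 3 correlated with replicate 2 about as much as with itself. With the number as a block 5 members were called lower against a background of 18.2%: Rpl24, Rps19, Rpl10a, Rpl27a and Rps27l. In male cortex 12 of the 77 were called lower and none higher, while 20.9% of all 13205 genes were called lower, so the members' share of 15.6% lay below the background. The 12 were 6 small-subunit genes, among them Rps12, Rps16, Rps19, Rps27l and Rps28, and 6 large-subunit genes, among them Rpl10a, Rpl12, Rpl24, Rpl27a and Rpl28.

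The male cortex count moved from 3 to 29 as libraries were left out: it was 3 without replicate 1 or replicate 3 of both groups, 29 without dexamethasone replicate 2, 4 without dexamethasone replicate 3 and 5 without dexamethasone replicate 1, vehicle replicate 1 or vehicle replicate 2. The subunit medians stayed negative and moved with the libraries. Leaving out libraries put the female small-subunit median between -0.15 (without vehicle replicate 2) and -0.05 (without vehicle replicate 3) and the large-subunit median between -0.13 and -0.03, at the same libraries. In male cortex the ranges were -0.13 (without dexamethasone replicate 2) to -0.05 (without replicate 1 of both groups) and -0.14 to -0.04. Groups did not overlap, with all dexamethasone libraries lower, for 10 of 77 members in female cortex (background 14.7%) and 14 of 77 in male cortex (background 24.5%). The cortical cultures also differed by treatment in their markers: the summed level of 7 oligodendrocyte lineage markers was 1163 to 1255 RPM with vehicle and 1460 to 1781 RPM with dexamethasone in female cortex, and 1097 to 1204 RPM against 1576 to 1634 RPM in male cortex. The 6 neuronal markers, of which 4 or 5 reached 1 RPM in cortex, summed to 609 to 781 RPM and 953 to 1115 RPM in female cortex, and to 635 to 682 RPM and 829 to 965 RPM in male cortex. The 8 stem and progenitor markers summed to 5064 to 5727 RPM and 4921 to 4967 RPM in female cortex. In male cortex they overlapped, at 5079 to 5970 RPM and 4825 to 5622 RPM. The 6 astrocyte markers overlapped in female cortex and summed to 955 to 1021 RPM and 1173 to 1326 RPM in male cortex. The mt-Rnr2 share was 1.71 to 2.67% with vehicle and 1.16 to 1.96% with dexamethasone in female cortex, and 1.84 to 2.17% against 1.09 to 1.31% in male cortex. The part of either in the ribosomal protein values was not tested, and in bulk libraries fewer cells of a type and less RNA per cell cannot be told apart.

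**Figure D2:**
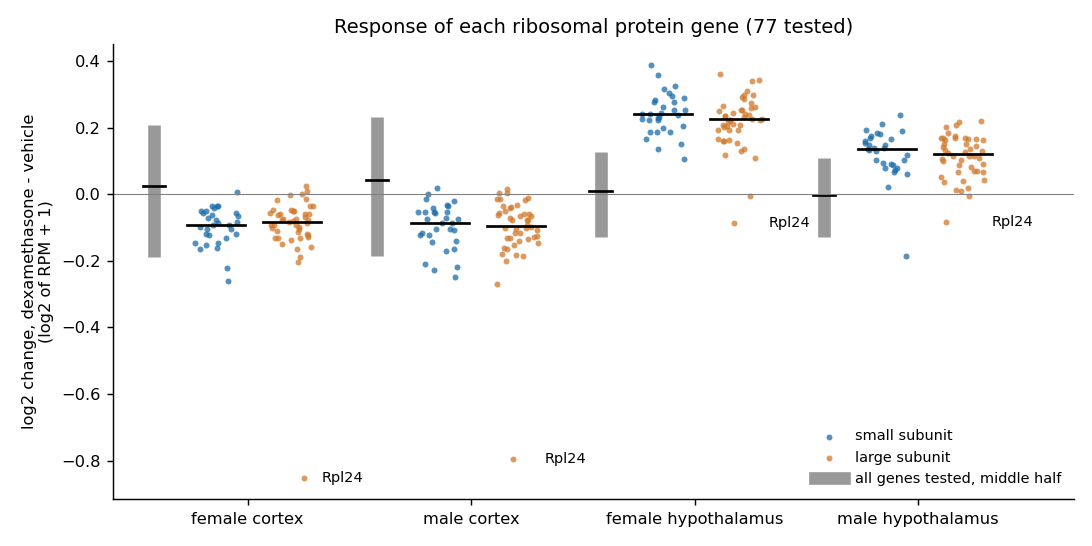
Log2 difference between dexamethasone and vehicle libraries for each of the 77 ribosomal protein genes tested (points; black lines are medians), small and large subunit apart, with the interquartile range and median of all genes tested as a grey bar. Both subunits centre between -0.10 and -0.08 in cortex, and between 0.12 and 0.24 in hypothalamus, and Rpl24 lies apart from the rest in cortex at -0.85 and -0.80.

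Rpl24, a large-subunit protein at the interface between the subunits, stood apart from the other members. In female cortex it measured 68.5, 60.1 and 49.0 RPM with vehicle and 34.9, 30.5 and 30.8 RPM with dexamethasone. In male cortex it measured 61.7, 64.8 and 63.9 RPM with vehicle and 38.0, 36.3 and 34.1 RPM with dexamethasone. All dexamethasone libraries lay below all vehicle libraries in both tables. The fall was -0.85 ± 0.146 (log2, SE; limma adjusted p = 0.0387) in females and -0.80 ± 0.0612 (limma adjusted p = 5.79e-06) in males, the largest of any member in either table.

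In hypothalamus the same gene measured 29.5, 25.5 and 29.8 RPM with vehicle and 26.3, 25.9 and 27.3 RPM with dexamethasone in females. Males had 29.8, 30.5 and 32.9 RPM with vehicle and 26.4, 30.3 and 31.3 RPM with dexamethasone. These groups overlapped, with differences of -0.09 ± 0.103 and -0.08 ± 0.0982 (limma adjusted p = 0.828 and 0.860). In the authors' deposited table Rpl24 had log2 differences of -0.88 and -0.81 in female and male cortex, with adjusted p of 1.09e-07 and 1.27e-06, and it was the single member under 0.05 in each; in the authors' deposited tables for hypothalamus no member was. The female cortex call was lost when any 1 of the 6 libraries was left out (limma adjusted p = 0.0569 to 0.183, log2 difference -0.74 to -0.98), and was kept with edgeR, DESeq2 and the replicate block. Rpl24 lies at chr16:55966275-55971435 on the plus strand (GRCm38), and 484 of its exon bases are shared with the noncoding transcript Gm28037 on the same strand, which has no entry in the tables, so the counting of reads there is uncertain.

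Rps19, a small-subunit protein needed for maturation of the 18S ribosomal RNA and mutated in Diamond-Blackfan anaemia, measured 411, 356 and 423 RPM with vehicle and 355, 308 and 328 RPM with dexamethasone in female cortex. In male cortex it measured 406, 398 and 389.7 RPM with vehicle and 343, 369 and 322 RPM with dexamethasone. The groups did not overlap in either table. The difference was -0.26 ± 0.106 (log2, SE; limma adjusted p = 0.227, and 0.0137 with the replicate block) in females and -0.21 ± 0.0571 (limma adjusted p = 0.0129) in males.

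Rpl12, a protein of the ribosomal stalk base, fell in male cortex from 518, 540.3 and 491 RPM to 419.8, 452 and 415 RPM, a change of -0.27 ± 0.0557 (log2, SE; limma adjusted p = 0.00299). All 3 dexamethasone libraries were below all vehicle libraries. In female cortex its libraries overlapped, at 479, 378 and 457 RPM with vehicle and 426, 343 and 404 RPM with dexamethasone (-0.16 ± 0.134).

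Rps16, a small-subunit protein near the decoding head, fell in male cortex from 109.8, 104 and 97.1 RPM to 86.1, 88.0 and 87.2 RPM (-0.25 ± 0.0566, log2, SE; limma adjusted p = 0.00511). Rps28 went from 174, 167 and 172 RPM to 138, 166 and 135 RPM (-0.23 ± 0.0745; limma adjusted p = 0.0284), and Rps12 from 526, 599 and 495 RPM to 444, 501 and 443 RPM (-0.22 ± 0.0768; limma adjusted p = 0.0379). The groups were apart for Rps16 and Rps28 and overlapped for Rps12. In female cortex the differences of the 3 genes were -0.06, -0.12 and -0.17, none of which passed the test.

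Other members differed little in cortex. Rpl3, which lines the peptidyl transferase centre, measured 521, 478 and 558 RPM with vehicle and 550.4, 504 and 527 RPM with dexamethasone in female cortex, and 569, 573 and 544 RPM against 554, 581 and 554 RPM in male cortex, with log2 differences of 0.02 ± 0.0958 and 0.00 ± 0.0485. Rps4x, an X-linked small-subunit protein, had differences of 0.01 and 0.02, and Rpsa, also known as the laminin receptor, of -0.04 and -0.01. Rps6, the small-subunit protein phosphorylated by S6 kinase, had differences of -0.04 ± 0.0802 and -0.07 ± 0.0464. Rpl5 and Rpl11, which together with 5S ribosomal RNA can bind Mdm2, had -0.01 and -0.06 in female cortex and -0.08 and -0.05 in male cortex. The stalk proteins Rplp0, Rplp1 and Rplp2 had -0.08, -0.09 and -0.13 in female cortex and -0.04, -0.16 and -0.10 in male cortex. Rps3, a small-subunit protein at the mRNA entry, Rps27, Rpl10, a late-joining large-subunit protein, and Rpl13a had -0.07, -0.06, -0.13 and -0.10 in female cortex and -0.03, -0.10, -0.15 and -0.08 in male cortex, none of them called.

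In hypothalamus the members pointed the other way, and none passed the test. In female hypothalamus 75 of 77 log2 differences were positive, with medians of 0.24 for the small and 0.22 for the large subunit against 0.01 over all genes. In male hypothalamus 74 of 77 were positive, with medians of 0.14 and 0.12 against 0.00. No member was called higher in females (background 0.793% of 12491 genes) or in males (background 0.226% of 12403 genes) by limma. Unadjusted limma p was under 0.05 for 2 members in females (1113 of all 12491 genes) and 4 in males (960 of all 12403). By edgeR and DESeq2 also 0 members were called in both tables.

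The replicate numbers were taken as pairs in both hypothalamus tables. With the number as a block, limma called 3 members higher in females (Rpl32, Rpl41 and Rps14, background 4.24%) and 3 in males (Rpl9, Rps14 and Rps4x, background 5.09%). Unadjusted p in this fit was under 0.05 for 63 of the 77 in females, against 3028 of all 12491 genes. In males it was under 0.05 for 27 of the 77, against 3538 of all 12403 genes. Groups did not overlap, with all dexamethasone libraries higher, for 0 members in females (background 9.14%) and 17 in males (background 7.1%), 9 of the small and 8 of the large subunit. The subunit medians stayed positive as libraries were left out. In females the small-subunit median ranged from 0.14 without vehicle replicate 3 to 0.38 without dexamethasone replicate 3, and the large-subunit median from 0.13 to 0.34 at the same libraries. In males the ranges were 0.09 (without dexamethasone replicate 3) to 0.22 (without replicate 1 of both groups) and 0.06 (without replicate 3 of both groups) to 0.19. Without male replicate 2, whose libraries carried Xist, the male medians were 0.10 and 0.10 with no call, and the remaining pairs of libraries did not overlap for 33 of 77 members (background 13.4%). The mt-Rnr2 share ranged from 27.0 to 36.5% with vehicle and from 26.8 to 39.96% with dexamethasone in females, and from 21.3 to 35.3% and 28.1 to 34.8% in males. The 8 stem and progenitor markers summed to 6821 to 7053 RPM with vehicle and 6115 to 6696 RPM with dexamethasone in males. In females they overlapped, at 6006 to 7020 RPM and 5540 to 6498 RPM. The part of either in the ribosomal protein values of hypothalamus was not tested.

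The 3 members with the smallest p in female hypothalamus were Rpl27, Rps27l and Rpl41. Rpl27, a large-subunit protein, measured 95.9, 81.3 and 81.96 RPM with vehicle and 115, 111 and 93.4 RPM with dexamethasone (0.30 ± 0.115; limma adjusted p = 0.515). Rps27l, a paralogue of Rps27 known as a p53 target, measured 156, 109.7 and 125 RPM against 183, 169.5 and 146 RPM (0.36 ± 0.148; limma adjusted p = 0.550). Rpl41, which encodes a very short basic peptide, measured 245, 210.2 and 195 RPM against 309, 298 and 224 RPM (0.34 ± 0.148; limma adjusted p = 0.561). In each gene 1 library of one group lay among those of the other.

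In male hypothalamus the smallest p belonged to Rps4x, Rps19 and Rps15a. Rps4x measured 486, 438 and 447 RPM with vehicle and 541, 500.0 and 546 RPM with dexamethasone (0.21 ± 0.0791; limma adjusted p = 0.587). Rps19 measured 200.3, 185 and 199 RPM against 223, 216 and 223 RPM (0.18 ± 0.0676; limma adjusted p = 0.588). Rps15a measured 259, 226 and 239 RPM against 278, 273 and 273 RPM (0.19 ± 0.0755; limma adjusted p = 0.614). The groups did not overlap for these 3 genes, and none passed the test. Rps3, Rps27, Rpl10 and Rpl13a had log2 differences of 0.26, 0.19, 0.22 and 0.30 in females and 0.18, 0.09, 0.17 and 0.16 in males. Rps6, Rpl5 and Rpl11 had 0.25, 0.20 and 0.16 in females and 0.14, 0.12 and 0.07 in males.

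Members ranked alike in the sexes within a region. Across the 77 genes the log2 differences of females and males had a Pearson correlation of 0.879 (Spearman 0.697) in cortex and 0.759 (Spearman 0.709) in hypothalamus. Without Rpl24 the Pearson values were 0.654 and 0.723, and without male replicate 2 the hypothalamus value was 0.639 (Spearman 0.580), with 69 genes higher in both sexes. Females and males share no library, but the genes within a library share its depth and scaling, so these are descriptions over genes. Both sexes were lower for 70 of the 77 in cortex, and both higher for 74 of the 77 in hypothalamus. The exceptions in hypothalamus were Rpl24, lower in both, Rpl28, nearly level at -0.007 in females and -0.006 in males, and Rps16, at 0.11 in females and -0.19 in males.

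**Figure D3:**
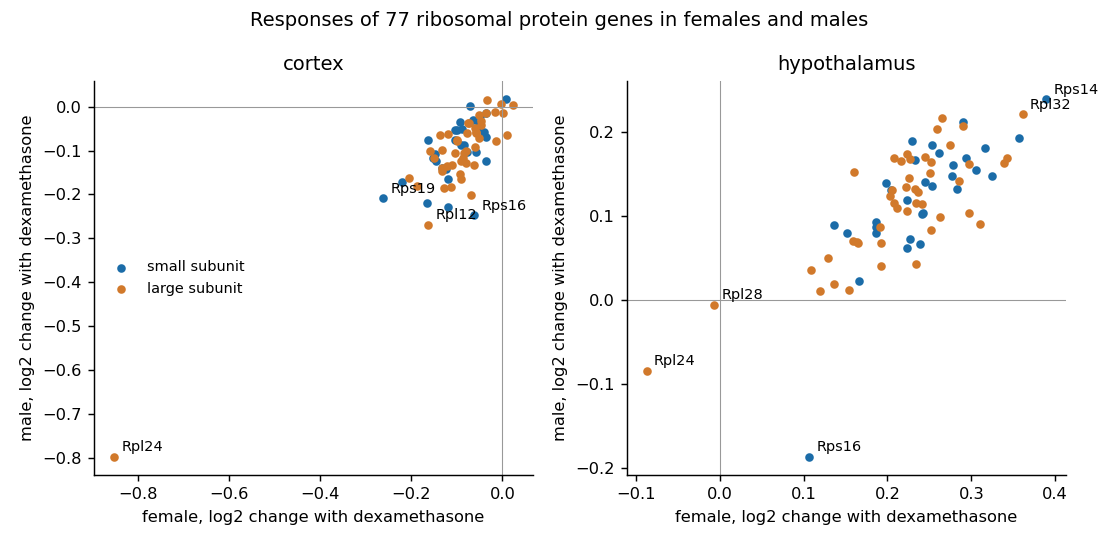
Log2 difference with dexamethasone in females (horizontal axis) and males (vertical axis) for 77 ribosomal protein genes in cortex (left) and hypothalamus (right), coloured by subunit. In cortex 70 genes lie below 0 in both sexes with Rpl24 far from the rest, and in hypothalamus 74 lie above 0 in both.

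No difference between the sexes in the response was detected. Of the 13680 genes tested in cortex and the 12843 in hypothalamus, 0 (0%) were called in each by limma, edgeR or DESeq2, with 169 and 33 at an unadjusted limma p under 0.05, and no member had one. In cortex the smallest p among members belonged to Rps26, with a male minus female response of -0.13 ± 0.0956, Rpl28 with -0.17 ± 0.130 and Rpl5 with -0.10 ± 0.0935. In hypothalamus it belonged to Rpl27 (-0.19 ± 0.146), Rps13 (-0.16 ± 0.129) and Rps16 (-0.29 ± 0.241). The median over members was -0.03 in cortex, and -0.03 for the small and -0.04 for the large subunit, which became 0.03 and 0.02 when depth was scaled without the rRNA-like entries. As libraries were left out the cortex medians ran from -0.07 to 0.03 and from -0.09 to 0.01, so their sign was not fixed; both were positive without female vehicle replicate 2. In hypothalamus the subunit medians were -0.12 and -0.10, and -0.14 and -0.11 without male replicate 2, with 0 calls. There they ran from -0.25 to -0.01 and from -0.22 to -0.02, lowest without female dexamethasone replicate 3 and nearest to 0 without female vehicle replicate 3.

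The response to dexamethasone differed between the regions for 12 members. In the fit over all 24 libraries all 77 had a more positive response in hypothalamus than in cortex, with medians of 0.24 for the small and 0.25 for the large subunit against -0.04 over all genes. The 12 called members were 15.6% of the 77, while 7.3% of the 13932 genes tested were called in this direction by limma. Among them were Rps18 and Rps19 of the small subunit and Rpl10, Rpl10a, Rpl12, Rpl24, Rpl27, Rpl32 and Rplp0 of the large subunit.

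Rpl24 had a difference in response of 0.72 ± 0.110 (log2, SE; limma adjusted p = 0.000177), which came with a fall in cortex and overlapping groups in hypothalamus. Rps19 followed with 0.47 ± 0.109 (limma adjusted p = 0.00654). Rpl32, a large-subunit protein, measured 531, 501 and 598 RPM with vehicle and 508, 475 and 511 RPM with dexamethasone in female cortex, and 571, 581 and 520.5 RPM against 484, 565 and 476 RPM in male cortex. In female hypothalamus it measured 371, 299 and 266 RPM with vehicle and 443, 439 and 323 RPM with dexamethasone, and in male hypothalamus 387, 312 and 342 RPM against 397, 387 and 426 RPM. The difference in response of Rpl32 was 0.41 ± 0.126 (limma adjusted p = 0.0350). Rpl12 and Rpl10a, another large-subunit protein, had 0.39 ± 0.113 and 0.37 ± 0.1001 (limma adjusted p = 0.0278 and 0.0174).

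Rplp0, the scaffold of the ribosomal stalk and among the most abundant members, measured 989, 932 and 1042 RPM with vehicle and 938, 919.6 and 952 RPM with dexamethasone in female cortex. In female hypothalamus it measured 552, 516 and 458 RPM with vehicle and 619.7, 657 and 541 RPM with dexamethasone. Its response was more positive in hypothalamus by 0.25 ± 0.081 (limma adjusted p = 0.0482). Rpl3 had 0.14 ± 0.0998 and did not pass the test.

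The count of 12 depended on the libraries. Without the 2 male hypothalamus libraries that carried Xist it was 3 (Rpl10a, Rpl24 and Rps19), or 3.9% of members against 6.1% of all genes. Rpl12 and Rpl32 then had limma adjusted p = 0.0746 and 0.0854. In females alone it was 0 (all genes 0.589%). In males alone it was 2 (Rpl24 and Rps19), or 2.6% of members against 4.52% of all genes. The members' share thus lay below that of all genes in each of these fits. As libraries were left out the count ran from 1 to 41 (all genes 2.74 to 8.42%). It was 41 without female hypothalamus dexamethasone replicate 3 and 28 without female hypothalamus vehicle replicate 1. It was 19 without female cortex vehicle replicate 2, and 1 with replicate 2 or replicate 3 of every group left out. It was 5 without female hypothalamus dexamethasone replicate 1 or 2 or vehicle replicate 3, without male cortex dexamethasone replicate 1 or 3, or without male hypothalamus dexamethasone replicate 3 or vehicle replicate 2, and 6 without female cortex vehicle replicate 3, female hypothalamus vehicle replicate 2, male cortex vehicle replicate 1 or 2, or replicate 1 of every group. In females alone, with equal numbers taken as pairs, 20 of 77 were called with the replicate block against a background of 7.21%. Rpl24 and Rps19 were among them (limma adjusted p = 0.00407 and 0.0120). The pairing of replicate 3 in female cortex is uncertain.

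**Figure D4:**
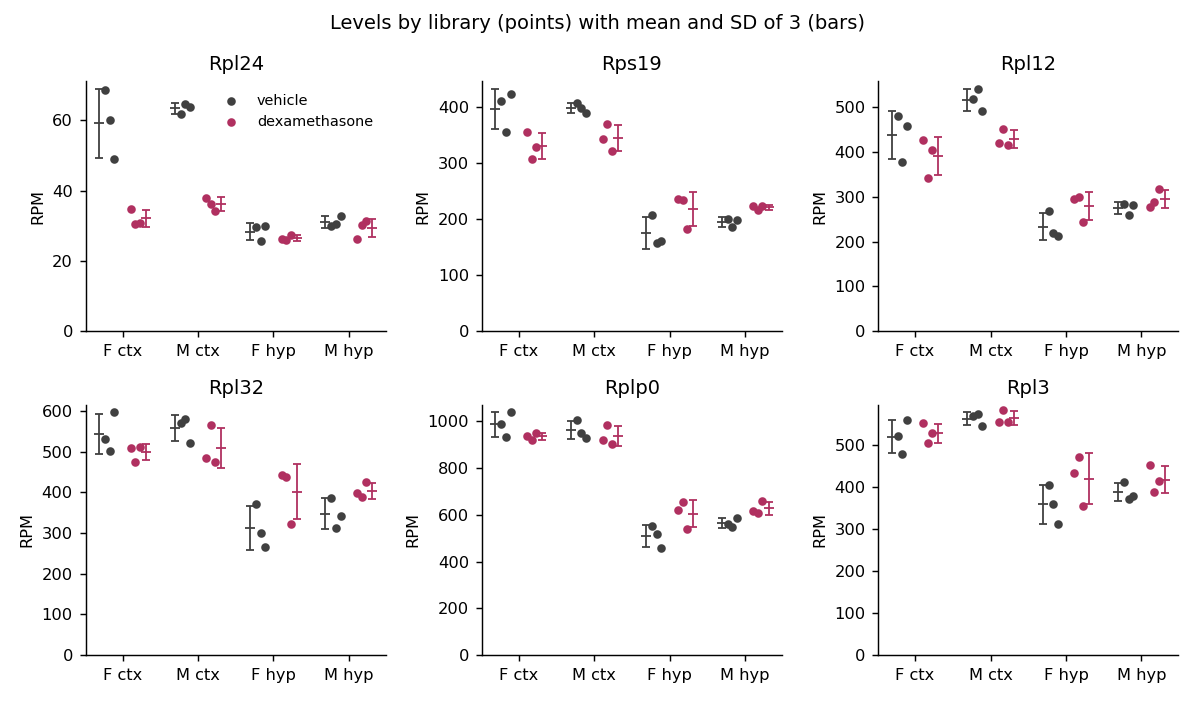
Levels of 6 ribosomal protein genes in RPM by library (points), with the mean and SD of the 3 libraries of each group beside them; F and M are female and male, ctx and hyp are cortex and hypothalamus, and all axes start at 0. Rpl24 drops from 49.0 to 68.5 RPM to 30.5 to 38.0 RPM in cortex and is level in hypothalamus, while Rpl3 overlaps between treatments in every table.

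Between the regions themselves, vehicle libraries differed in 24 members. On the common scale 4 were higher in hypothalamus (background 28.1%) and 20 lower (background 28.2% of 13627 genes, limma), with medians of -0.01 for the small and -0.10 for the large subunit. In the dexamethasone libraries, which are other libraries, 37 members were higher (background 24.4%) and 4 lower (background 29.9%), with medians of 0.21 and 0.15, so the sign of the subunit medians depended on which libraries were compared; with vehicle the small-subunit median was also 0.00 by edgeR and 0.01 by DESeq2, 0.03 without female hypothalamus replicate 3 and 0.01 without male hypothalamus replicate 2. For all 77 the hypothalamus minus cortex difference was larger with dexamethasone. Apart from scaling, this restates the more positive response of all 77 in hypothalamus and is no separate result. Called members with the same sign in both sets numbered 4 lower and 4 higher, and 1, Rpl24, was called in opposite directions, at -0.40 and 0.31.

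The 4 members higher in hypothalamus in both sets were Rpl39, Rpl6, Rpsa and Rpl11. Rpl39, a short protein lining the exit tunnel, had a mean of 120.0 ± 10.2 RPM (SD, n = 6) in cortex and 199.9 ± 28.7 RPM (n = 6) in hypothalamus with vehicle, a difference of 0.72 ± 0.0971 (log2, SE; limma adjusted p = 8.59e-05). Over all 24 libraries it ranged from 103 to 132 RPM in cortex and from 163 to 272 RPM in hypothalamus, with no overlap. Rpl6 had 213 ± 10.7 and 271 ± 29.6 RPM, Rpsa 357 ± 33.8 and 427 ± 45.9 RPM, and Rpl11 218 ± 11.6 and 249.997 ± 24.3 RPM. The 26 alternatives or left-out libraries tried include fits on the dexamethasone libraries. Among the 26, the call was lost in 16 for Rpl11, 2 for Rpsa, 1 for Rpl6 and 0 for Rpl39.

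The 4 lower in hypothalamus in both sets were Rpl23a, Rps28, Rps29 and Rplp2. Rps28, a short small-subunit protein, had 139 ± 6.45 RPM (SD, n = 6) in cortex and 84.7 ± 6.77 RPM (n = 6) in hypothalamus (-0.71 ± 0.0637; limma adjusted p = 4.84e-06). Rps29, a zinc-binding small-subunit protein, had 208 ± 18.3 and 128 ± 9.99 RPM (-0.69 ± 0.0697), and its 12 cortex libraries lay at 174 to 231 RPM against 111 to 160.1 RPM in the 12 of hypothalamus. Rplp2, an acidic stalk protein, had 296 ± 23.7 and 203 ± 14.4 RPM (-0.54 ± 0.0649). Rps12 had -0.55 ± 0.0900 in the vehicle libraries, and in the dexamethasone libraries -0.21, which did not pass the test.

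Rpl23a, the large-subunit protein by the exit tunnel that contacts the signal recognition particle, was nearly absent from the hypothalamus libraries. It measured 251 to 313 RPM on the common scale in the 12 cortex libraries and 0.729 to 2.73 RPM in the 12 of hypothalamus, a log2 difference of -7.04 ± 0.116 with vehicle. It was one of 6 entries, among 3974 at 50 RPM or more in cortex, that were at least 32-fold lower in hypothalamus. Rpl23a lies at chr11:78180932-78183584 on the minus strand (GRCm38), contains 3 snoRNA genes, and shares 506 exon bases with Tlcd1 on the opposite strand. Tlcd1 itself differed between the regions by -0.47 ± 0.0913 (log2, SE) with vehicle. Region and processing cannot be told apart for this gene.

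**Figure D5:**
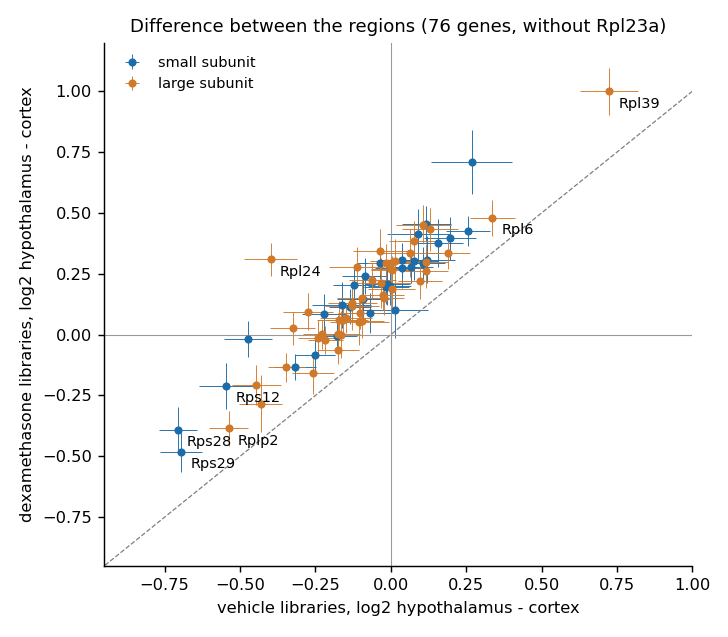
Difference between hypothalamus and cortex for 76 ribosomal protein genes (log2 on the common scale, bars are standard errors of the fit), in vehicle libraries (horizontal axis) and dexamethasone libraries (vertical axis). Every point lies above the dashed line of equal difference, which restates the more positive response of these genes in hypothalamus. Rpl39 is the highest at 0.72 and 1.00, and Rps28 and Rps29 are among the lowest. Rpl23a, at -7.04, is outside the plotted range and was left out.

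Per kilobase of the principal annotated transcript, vehicle levels over the 77 members spanned 56.4 to 1237 RPM per kb in cortex, with a median of 339, and 2.16 to 910 RPM per kb in hypothalamus, with a median of 324. Rplp1 was the highest in both regions, at 1237 ± 103.6 and 909.7 ± 95.1 RPM per kb (SD, n = 6), followed by Rps9 at 1009 ± 35.7 and 893 ± 73.0 RPM per kb and Rpl8 at 899.5 ± 69.9 and 797 ± 70.4 RPM per kb. Rplp1 and Rps9 differed by more than their spread in cortex and overlapped within it in hypothalamus. Rpl24 was among the lowest at 73.1 ± 9.05 and 54.9 ± 4.45 RPM per kb. The levels per kb depend on the transcript chosen, since several members have annotated transcripts that retain introns.

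Promoters were examined because members moved together, and 60 of the 80 genes matched 72 promoters of the RefSeq table (GRCm38.p6), each reaching from 250 bases before the annotated start to 50 after it. A C followed by 4 or more of C or T lay within 20 bases of the start, on the gene's strand, in 70.8% of the member promoters and 45.9% of all 32851 promoters of the table. A C at the start base itself followed by 4 or more of C or T occurred in 18.1% of member promoters and 2.51% of all. The windows below run from 40 bases before the start to 20 from it, 5′ to 3′ on the gene's strand, with the longest such run near the start in capitals, and show members that fell in male cortex or differed between regions with and without it.
Rps12 (chr10:23787190-23787249, minus strand): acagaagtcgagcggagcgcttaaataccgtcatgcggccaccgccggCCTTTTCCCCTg
Rps18 (chr17:33955646-33955705, minus strand): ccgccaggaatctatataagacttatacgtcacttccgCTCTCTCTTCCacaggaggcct
Rps27l (chr9:66946046-66946105, plus strand): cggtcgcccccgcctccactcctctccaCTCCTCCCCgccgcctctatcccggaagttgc
Rpl12 (chr2:32961672-32961731, plus strand): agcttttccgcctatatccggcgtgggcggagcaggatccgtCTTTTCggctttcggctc
Rplp0 (chr5:115559427-115559486, plus strand): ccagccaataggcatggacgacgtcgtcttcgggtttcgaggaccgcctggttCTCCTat
Rpl24 (chr16:55966235-55966294, plus strand): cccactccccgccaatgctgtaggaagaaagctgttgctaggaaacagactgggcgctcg
Rps28 (chr17:33824543-33824602, minus strand): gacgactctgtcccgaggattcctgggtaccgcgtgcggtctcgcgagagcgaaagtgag

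Rps12 and Rps18 carry runs of 11 pyrimidines, Rps27l 9, Rpl12 6 and Rplp0 5, and the windows of Rpl24 and Rps28 hold no run of 5 or more within 20 bases of the start. In male cortex the median response was -0.08 for the 29 tested members with a run of 8 or more, -0.05 for 16 with 5 to 7 and -0.11 for 12 with less. In female hypothalamus the 3 medians were 0.23, 0.24 and 0.25. CCGGAAG, the core of ETS-family sites, lay on either strand in 36.1% of member promoters and 8.86% of all, AAGATGGC, the core of YY1 sites, in 9.72 and 2.75%, and TATAAA in 8.33 and 13.6%. A full palindromic glucocorticoid response element, AGAACA, 3 bases and TGTTCT, was found in 0 of the 72 and in 3 of all 32851; these matches describe letters only.

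Genomic features were set beside the responses as a description. The 29 tested members with a snoRNA gene inside them had medians of -0.10 in male cortex and 0.22 in female hypothalamus, and the 48 without had -0.09 and 0.24. The 18 whose exons overlap a gene on the opposite strand had -0.11 and 0.24, and the other 59 had -0.08 and 0.23. The 4 tested X-linked members had -0.05 and 0.29.

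Other genes of the pathway were taken from lists, and their counts stand beside the share of all tested genes called by limma, which was 26.7% higher and 20.9% lower in male cortex and 1.4% higher and 3.02% lower in female cortex. Of 39 ribosome biogenesis factors, 28 were called lower in male cortex by limma, with a median of -0.31. None was called in female cortex, where the median was -0.26, or in hypothalamus, where it was -0.01 in females and -0.10 in males. The largest falls were those of Gnl3, the nucleolar GTPase nucleostemin, at -0.96 ± 0.0585 (log2, SE), Gar1, a protein of box H/ACA particles, at -0.75 ± 0.0862, Nop58, of box C/D particles, at -0.73 ± 0.0549, and Tsr1, a 40S assembly factor, at -0.69 ± 0.0549. The response of Gnl3 was more positive in hypothalamus by 0.95 ± 0.255, the single call of this list between the regions (all genes 7.3%).

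Of 10 snoRNA host genes, noncoding genes whose introns hold snoRNAs and many of which also begin with a pyrimidine tract, 9 were called lower in male cortex (median -0.72) and 2 in female cortex (median -0.49). Snhg12 had 85.6, 52.9 and 61.6 RPM with vehicle and 21.9, 21.8 and 26.4 RPM with dexamethasone in female cortex, and 80.5, 85.4 and 80.7 RPM against 20.6, 24.5 and 19.95 RPM in male cortex. Snhg12 fell by 1.45 and 1.88 on the log2 scale, and Snhg1 by 1.12 and 1.29. Gas5 fell in male cortex from 337, 340.1 and 315 RPM to 203, 208 and 195 RPM. In hypothalamus none of the 8 tested was called. The response was more positive in hypothalamus for 7 of 10 (all genes 7.3%), with Snhg12 at 1.54 ± 0.176 and Snhg1 at 1.23 ± 0.164.

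Of 35 translation factors, 3 were called higher and 12 lower in male cortex (median -0.07), and 1, the start-codon selection factor Eif1, was called lower in female cortex. Eif1 changed by -1.12 ± 0.1001 in female and -1.22 ± 0.0494 in male cortex, Eif2s2 by -0.75 ± 0.0579 and the poly(A) binding protein Pabpc1 by -0.66 ± 0.0551 in male cortex. Of 26 genes of mTOR and translation control tested in male cortex, 7 were called higher and 9 lower, among them Sesn1, a leucine-regulated inhibitor of mTORC1, at 2.13 ± 0.0725, its paralogue Sesn2 at -2.14 ± 0.110, the pseudokinase Trib3 at -3.06 ± 0.186 and the translation repressor Eif4ebp1 at -1.46 ± 0.163. In female cortex the same 4 were called, at 2.25, -2.30, -3.21 and -1.68.

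Of 12 genes of the Myc network, 3 were called higher and 5 lower in male cortex and 2 lower in female cortex. Myc, a transcriptional activator of ribosomal genes, changed by -0.92 ± 0.180 in female and -1.06 ± 0.0543 in male cortex, and Mycn by -1.68 ± 0.213 and -1.83 ± 0.142. Of 14 genes of RNA polymerase I transcription, 1 was called higher and 5 lower in male cortex, Taf1d falling most (-1.03 ± 0.0699), and 0 were called in female cortex. Of 74 mitochondrial ribosomal proteins, 12 were called higher and 5 lower in male cortex with a median of 0.06, against -0.09 for the cytoplasmic members, and in hypothalamus their medians were 0.16 in females and 0.08 in males with no call. No list had a call in either hypothalamus table.

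Ribosomal protein genes outside the naming rule numbered 6 among those tested. In male cortex Rpl7l1, a paralogue of Rpl7, changed by 0.15 ± 0.0462 (limma adjusted p = 0.0242). Fau, which encodes ubiquitin-like protein fused to a small-subunit protein, had -0.13 and -0.09 in female and male cortex and 0.13 in each hypothalamus table. Rps3a1, a small-subunit protein, had 0.01 and -0.04 in cortex and 0.28 and 0.23 in hypothalamus.

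The 3 members that did not pass the filter are paralogues known from testis or muscle. Rpl10l had 0 reads in all 24 libraries, and 3 reads would be 0.00624 RPM over their summed depth. Rpl39l had 1 read in 1 library, and Rpl3l had 35 reads in 16 libraries with a highest value of 0.312 RPM. These limits cover counting error only.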

How the data were processed

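Total RNA of 24 libraries was sequenced. Per the submitters' processing notes, reads were handled with TopHat2 (2.0.13 and 2.0.9) and HTSeq on GRCm38; the strand setting and annotation are not given in the sources used here. The deposited values are a signal per gene, in RPM (reads scaled to a common library size by the authors): 100% were whole reads within 0.01 read. Log2 fold changes and adjusted p-values of the authors' deposited tables were used only where named. Entries with a repeated name (4) were left out.

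Each table was tested with limma 3.58.1 (R 4.3.3; trend, two-sided) on log2(RPM + 1), for genes at 1 RPM or more in 3 libraries, with Benjamini-Hochberg adjustment over all genes tested; a fold change on this scale understates that of low genes. Sex, region and interaction tests used recovered reads scaled by TMM over the libraries of the fit, and levels "on the common scale" used TMM over all 24. edgeR 4.0.16, DESeq2 1.42.0, pseudocounts of 0.1 and 5, filters of none and 10 RPM, scaling without 4 rRNA-like entries (mt-Rnr1, mt-Rnr2, Gm26924 and Lars2), a replicate block and left-out libraries were alternatives. The fit was tested on simulated data. In each sample 1 RPM rests on about 16 to 25 reads, so counting error is small for the members tested.

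Deviations from the group mean were correlated between same-numbered vehicle and dexamethasone libraries. The values were 0.494 to 0.872 in female cortex, 0.607 to 0.752 in female hypothalamus and 0.655 to 0.765 in male hypothalamus. In these tables the numbers were taken as pairs. In male cortex the values were 0.0208 to 0.391, and the numbers were not taken as pairs. In female cortex vehicle replicate 2 with dexamethasone replicate 3 also correlated at 0.492, and vehicle replicate 3 with dexamethasone replicate 2 at 0.459. The labels name no pairing, so the pairing of replicate 3 in female cortex is uncertain.

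Members named are a fixed set plus, per comparison, the 5 largest called changes each way with a mean of at least 10 RPM in a group, or the 3 smallest p where none was called, and Fkbp5 and Fos; others were named to complete a count of calls. Lists give up to 4 called genes each. Members and lists were chosen with earlier results of these data known. Exon overlaps and snoRNA counts come from GENCODE M21 on GRCm38. Per-kb levels use the shortest of the best-supported principal transcripts. Some genes counted in the totals are not reported here by name.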

Additional observations from a re-analysis of the deposited data

Results flagged for a closer look

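The response to dexamethasone differed between hypothalamus and cortex for 12 ribosomal protein genes, by the interaction of region and treatment over 24 libraries (limma, Benjamini-Hochberg adjusted p under 0.05). Among them, on the log2 scale, the hypothalamus minus cortex response was 0.72 for Rpl24, 0.47 for Rps19, 0.41 for Rpl32, 0.39 for Rpl12, 0.37 for Rpl10a, 0.35 for Rps18, 0.33 for Rpl10, 0.28 for Rpl27 and 0.25 for Rplp0. The 12 were 15.6% of the 77 tested, against 7.3% of all 13932 genes called in this direction. Without the male hypothalamus libraries that carried Xist the count was 3 (all genes 6.1%), and Rpl12 and Rpl32 were not called (limma adjusted p = 0.0746 and 0.0854). In females alone it was 0 (all genes 0.589%). For Rpl24 the difference came from the cortex, where the gene fell in both sexes. For Rps19 the fitted level was lower in both cortex tables, by 0.26 and 0.21, and higher in both hypothalamus tables, by 0.32 and 0.18.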

How the results depend on the processing

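Repeats of the calls on named genes under alternatives and left-out libraries passed in 450 cases and did not in 87, and 0 changed sign. In male cortex 12 members were called lower (all genes 20.9%), and 6 without a filter on low values (all genes 13.9%), 19 with edgeR (23.4%), 22 with DESeq2 (20%), 20 with the replicate block (22.8%; numbers not pairing these libraries) and 3 to 29 with libraries left out (16.3 to 19.9%). In female cortex the count was 1 (all genes 3.02%), 5 with the replicate block (18.2%) and 0 to 1 with libraries left out (0 to 7.05%); in either hypothalamus table it was 0, and 3 higher with the block. For the difference between regions in response it was 12 by the reported fit (all genes 7.3%), 7 without the filter (4.69%) and 24 with DESeq2 (7.91%). With the replicate block over all libraries it was 68 (16.9%), though the numbers do not pair the male cortex libraries. The count was 0 in females (0.589%), 2 in males (4.52%), 20 in females with the block (7.21%) and 3 without male hypothalamus replicate 2 (6.1%). With libraries left out it was 1 to 41 (2.74 to 8.42%). The block made 0 calls in either comparison of the sexes.

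Between regions with vehicle, 4 members were higher and 20 lower (all genes 28.1 and 28.2%). Leaving out libraries gave 2 to 6 and 11 to 30, with 5272 to 8610 of all genes called in either direction. Females alone gave 1 and 9, with 1883 higher and 1904 lower of all 13153 genes. The dexamethasone libraries gave 37 and 4 (all genes 24.4 and 29.9%), with subunit medians of 0.21 and 0.15. Without male replicate 2 they gave 36 and 4, with 2978 higher and 3708 lower of all 13564 genes. Other settings kept these counts within 1.5 times. Over all genes in cortex, female calls numbered 588 by limma, 580 by edgeR, 1732 by DESeq2 and 5068 with the block. The cause of these shifts was not tested.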

Other observations

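Entries that carry a ribosomal protein symbol with a pseudogene suffix numbered 222. Of these, 34 had no read in any library and 5 reached 1 RPM in at least 1 library, and together they held 249 to 605 reads per library. The vehicle libraries of hypothalamus were higher for the 3 such entries tested, Rpl31-ps8 at 1.17 ± 0.124 (log2, SE), Rps15-ps2 at 0.91 ± 0.116 and Rps15a-ps3 at 0.66 ± 0.0978. Of all 13627 genes tested, 28.1% were called higher in this comparison. The labels do not say how reads with several equally good positions were counted, so the split of reads between members and these near-identical copies is uncertain.

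Fos, an immediate early transcription factor, measured 197, 364 and 218 RPM with vehicle in female cortex and 20.1, 30.9 and 30.3 RPM with dexamethasone. In female hypothalamus it measured 36.7, 17.1 and 23.9 RPM and 28.3, 14.2 and 20.8 RPM. It fell in both cortex tables, with log2 changes of -3.18 ± 0.277 in females and -3.26 ± 0.0552 in males, and in hypothalamus the groups overlapped.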
